A study of Mus musculus with 9 samples.

Results

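Ligands and receptors of the tumour necrosis factor (TNF) family were examined in microglia, the brain's own macrophages, sorted after a transient ischemic attack (TIA). The 10 members were the rows named Tnf, Tnfsf4, Tnfsf8, Tnfsf10, Tnfsf12, Tnfsf13b, Tnfrsf1a, Tnfrsf1b, Tnfrsf4 and Tnfrsf12a, which make 6 ligands and 4 receptors out of 757 genes measured. All 10 were in the table and entered the fit, which used no filter on low values. The filter run as an alternative, on genes below the 0.25 quantile of the mean, kept 5 members (Tnf, Tnfsf12, Tnfrsf1a, Tnfrsf1b and Tnfrsf12a) and left out the other 5. Samples came from wild-type C57BL6/J mice, young adult per the study's methods and male per its figure legend for these data. The TIA groups had the middle cerebral artery closed for a short time with a filament and were sampled 24 h (TIA 24h) or 3 d later (TIA 3d), while Sham animals had surgery only, and each group held 3 animals. All brains were placed in a medium with actinomycin D, an inhibitor of transcription, before dissociation, and sorting kept CD45+ CD11b+ cells that did not take up 7-AAD, a stain for dead cells. CD45 and CD11b are also carried by blood monocytes and neutrophils, so the gate takes in more than microglia. RNA was counted with barcoded probes on a neuroinflammation panel. A later time point of the study was not analysed here.

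TNF family ligands are mostly membrane proteins that act on neighbouring cells or are cut off and act in solution, and their receptors pass the signal on through adaptor proteins. TNF itself is made mainly by cells of the macrophage lineage, microglia included, and binds a receptor present on most cells (Tnfrsf1a, TNFR1, which carries a death domain) and another most abundant on immune and endothelial cells (Tnfrsf1b, TNFR2). Both receptors lead to NF-kB, a transcription factor held in the cytoplasm by inhibitors such as the product of Nfkbia. OX40 (Tnfrsf4) and its ligand (Tnfsf4) and the CD30 ligand (Tnfsf8) are known best from T cell costimulation. TRAIL (Tnfsf10) can trigger cell death, TWEAK (Tnfsf12) acts on Fn14 (Tnfrsf12a), and BAFF (Tnfsf13b) keeps B cells alive.

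Promoter sequence is shown for Tnf, Tnfrsf1a and Tnfrsf1b, the members whose 3 values at TIA 3d all lay above the 3 at TIA 24h. The sequences are from RefSeq (GRCm38.p6), run 5′ to 3′ on the strand of the gene and span 250 bases before to 50 after the annotated start. Capitals mark TATAAA, a form of the TATA box, or a GC box, spelled GGGCGG, which were searched on both strands and did not overlap here. The windows lie at chr17:35201958-35202257 (Tnf, minus strand), chr6:125349473-125349772 (Tnfrsf1a, plus strand) and chr4:145246821-145247120 (Tnfrsf1b, minus strand), and each takes in upstream sequence and the beginning of the transcript.
Tnf: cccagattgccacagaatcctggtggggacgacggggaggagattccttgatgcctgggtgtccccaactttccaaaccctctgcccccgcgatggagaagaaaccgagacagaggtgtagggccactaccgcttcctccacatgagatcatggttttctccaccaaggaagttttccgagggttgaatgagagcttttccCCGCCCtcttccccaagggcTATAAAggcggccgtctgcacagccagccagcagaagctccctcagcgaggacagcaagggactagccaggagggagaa
Tnfrsf1a: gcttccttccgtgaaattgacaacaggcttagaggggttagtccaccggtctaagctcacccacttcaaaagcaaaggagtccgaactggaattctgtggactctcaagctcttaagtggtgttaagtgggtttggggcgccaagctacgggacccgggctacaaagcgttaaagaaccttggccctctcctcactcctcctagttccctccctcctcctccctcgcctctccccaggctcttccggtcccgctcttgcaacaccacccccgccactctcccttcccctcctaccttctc
Tnfrsf1b: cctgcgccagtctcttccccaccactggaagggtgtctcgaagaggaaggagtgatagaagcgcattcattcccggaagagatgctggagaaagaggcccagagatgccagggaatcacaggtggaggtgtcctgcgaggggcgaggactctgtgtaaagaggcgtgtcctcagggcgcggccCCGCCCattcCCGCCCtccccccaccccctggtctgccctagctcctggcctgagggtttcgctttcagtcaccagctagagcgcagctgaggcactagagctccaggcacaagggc
The Tnf window held TATAAA with its first base at -29 from the start and a GC box, read on the opposite strand, at -49. The Tnfrsf1b window held GC boxes at -67 and -57, and the Tnfrsf1a window held neither motif. Among 32851 mouse promoter windows of the same length, 13.6% held TATAAA and 35.7% held GGGCGG. RefSeq windows were found for 8 of the 10 members, not for Tnfsf4 and Tnfsf12.

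The lanes differed in depth and in how strongly they showed microglial genes. Whole counts recovered from the deposited values summed to 6560 to 25582 per Sham lane, then 7248 to 10929 at TIA 24h, then 29200 to 62883 at TIA 3d. Of 15 microglial markers listed, 12 were measured, and all 12 lay above the highest of 18 lymphocyte markers in Sham replicates 1 and 2, TIA 24h replicate 1 and all TIA 3d lanes. In Sham replicate 3 this held for 0 of 12, in TIA 24h replicate 2 for 3 and in TIA 24h replicate 3 for 1. By this measure these 3 lanes did not bear out the label. The highest count of any gene there was 32, 60 and 180 in that order, beside 335 to 2963 in the other lanes. Values of these 3 lanes thus rest on low counts for nearly all genes, with lane medians of 8, 9 and 8. Microglial markers made up 2.80 to 19.3% of all counts in Sham lanes, then 2.11 to 4.46% at TIA 24h, then 10.9 to 16.4% at TIA 3d. Oligodendrocyte markers, 16 of 20 measured, took 0.731 to 6.68%, 3.22 to 6.45% and 0.412 to 0.781%, and neutrophil and monocyte markers, 7 of 12 measured, 0.567 to 0.747%, 0.595 to 0.980% and 0.266 to 0.531%. The part of these differences in the values below was not tested. Fewer cells of a type and less RNA per cell cannot be told apart in such samples, and depth and time point cannot be told apart for TIA 3d, whose lanes were all deeper than the rest.

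Tnfrsf4, Tnfsf4 and Tnfsf8 stayed near the lowest counts, here 10 counts or fewer in at least 8 of 9 lanes. Tnfrsf4 had 2, 1 and 2 counts in Sham replicates 1 to 3, then 4, 6 and 4 at TIA 24h, then 6, 5 and 3 at TIA 3d. Tnfsf4 had 3, 7 and 4 counts, then 1, 2 and 4, then 6, 5 and 10. Tnfsf8 had 2, 6 and 9 counts, then 8, 5 and 8, then 12, 7 and 6. The OX40 pair was thus at 10 counts or fewer in all 9 lanes, and the CD30 ligand in 8. Of all 757 genes, 14.5% stayed as low, and of the 18 lymphocyte markers, which sorted microglia should lack, 50%.

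Tnfsf13b and Tnfsf10 followed just outside that limit. Tnfsf13b, the B cell survival factor, had 8, 4 and 6 counts in Sham, then 9, 8 and 6 at TIA 24h, then 14, 8 and 15 at TIA 3d, with 7 lanes at 10 or fewer. Tnfsf10, the death ligand TRAIL, had 7, 7 and 4, then 3, 5 and 8, then 16, 13 and 18, with 6 lanes at 10 or fewer. Neither these nor the 3 lowest members passed the highest lymphocyte marker in any lane. With a limit of 5 counts 0 members counted as near the lowest, and with a limit of 20 counts 5 did, Tnfsf10 and Tnfsf13b being added.

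Tnfrsf1a, Tnfrsf12a and Tnfsf12 had counts at or above the lane median in every lane, and Tnf and Tnfrsf1b in part of them. Tnfrsf1a had the highest median over lanes, 34 counts, and exceeded the highest lymphocyte marker in 5 lanes, as did Tnfrsf12a with a median of 30. For Tnfrsf1b this held in 3 lanes and for Tnf and Tnfsf12 in 2. Probes differ in efficiency, so these counts do not give the relative abundance of different transcripts. Intervals on single counts cover counting error only: 8 counts of Tnf allow 3.45 to 15.8 (95% exact Poisson), and 105 counts allow 85.9 to 127.

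**Figure D1:**
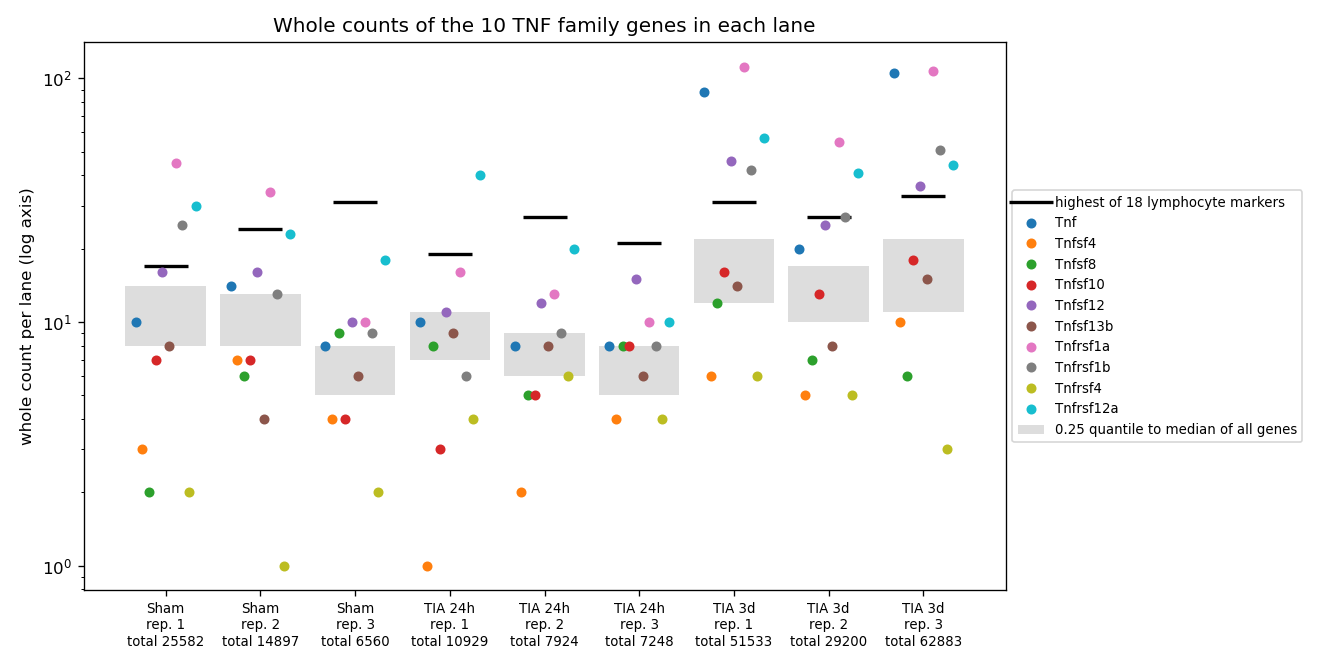
Whole counts of the 10 TNF family genes (points, log axis) in each of the 9 lanes, labelled with group, replicate and total count; grey bars span the 0.25 quantile to the median of all 757 genes in the lane and black lines give the highest of 18 lymphocyte markers. Tnfrsf4 and Tnfsf4 lie at 10 counts or fewer in all 9 lanes, and Tnf reaches 88 and 105 counts in TIA 3d replicates 1 and 3.

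Tnf, the founding cytokine of the family, was low in Sham and at TIA 24h and higher in all 3 TIA 3d animals, by amounts that differed between them. It had 10, 14 and 8 counts in Sham, then 10, 8 and 8 at TIA 24h, then 88, 20 and 105 at TIA 3d. On the deposited scale, log2 of the normalized count, this was 3.26, 3.93 and 3.97 in Sham, then 3.98, 3.89 and 3.92 at TIA 24h, then 5.63, 4.09 and 5.85 at TIA 3d. TIA 3d replicate 2, at 4.09, lay just above the highest value of the other groups, 3.98, and the groups overlapped between Sham and TIA 24h alone. The mean of 5.19 ± 0.96 (SD, n = 3) at TIA 3d exceeded the Sham mean of 3.72 ± 0.40 by 1.47 (SE 0.49), with an adjusted p of 0.16 in limma, past no threshold. Against TIA 24h (3.93 ± 0.05) the difference was 1.26 (95% interval 0.21 to 2.31, limma adjusted p = 0.0757). Leaving out 1 animal at a time, that difference was 0.93 to 1.81 (limma adjusted p of 0.0385 to 0.265). It passed the threshold only without TIA 3d replicate 2 (1.81, limma adjusted p = 0.0385). The other settings gave 0.11 to 1.60 (adjusted p of 0.0413 to 0.973), the lowest difference being that with voom.

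Tnfrsf1a, the main receptor of soluble TNF, was the member that passed the threshold between the time points on the deposited scale, higher at TIA 3d. It had 45, 34 and 10 counts in Sham, then 16, 13 and 10 at TIA 24h, then 111, 55 and 107 at TIA 3d. The log2 values were 5.43, 5.21 and 4.30 in Sham, then 4.66, 4.59 and 4.24 at TIA 24h, then 5.96, 5.55 and 5.87 at TIA 3d. All 3 TIA 3d values lay above the other 6, whereas Sham and TIA 24h overlapped. TIA 3d exceeded TIA 24h by 1.30 on the log2 scale (95% interval 0.40 to 2.20), with a limma adjusted p of 0.0474. The call was lost without the 3 lanes low in microglial markers, a setting chosen after seeing the data that leaves 1 lane at TIA 24h, assumed to vary like the other groups (1.14, limma adjusted p = 0.223). It was also lost without any single TIA 24h or TIA 3d animal or Sham replicate 2, with limma adjusted p up to 0.149. The replicate block (limma adjusted p = 0.0517) and an ordinary linear model (0.0912) ended it too, as did quantile normalization, with a difference of 0.87 (0.232). The difference was 0.31 with voom, a fit of the recovered counts scaled by lane total (0.553), and 0.02 with the total count as covariate (0.997). Against Sham the difference was -0.49 at TIA 24h (limma adjusted p = 0.783) and 0.82 at TIA 3d (0.28).

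Tnfrsf1b, the second TNF receptor, had 25, 13 and 9 counts in Sham, then 6, 9 and 8 at TIA 24h, then 42, 27 and 51 at TIA 3d. Its log2 values were 4.58, 3.83 and 4.14, then 3.24, 4.06 and 3.92, then 4.56, 4.53 and 4.80. TIA 3d lay above TIA 24h in every animal, while Sham overlapped both. The difference of 0.89 between the time points had a limma adjusted p of 0.119, and those against Sham were -0.45 at TIA 24h and 0.45 at TIA 3d (limma adjusted p = 0.783 and 0.519).

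Differences between members of the same lane do not depend on the lane's scaling. On the log2 scale, Tnf minus Tnfrsf1a changed by -0.04 from TIA 24h to TIA 3d (two-sided exact permutation p = 0.9), and Tnfrsf1b minus Tnfrsf1a by -0.41 (exact permutation p = 0.4). Tnf minus Tnfrsf1b was 1.02 higher at TIA 3d than in Sham (exact permutation p = 0.3). Of 15 such tests, none had an adjusted p below 0.75, and 0.1 is the smallest p that 3 animals against 3 allow. The change of Tnf minus Tnfrsf1a was smaller than its spread between animals at TIA 3d (SD 0.75, n = 3).

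**Figure D2:**
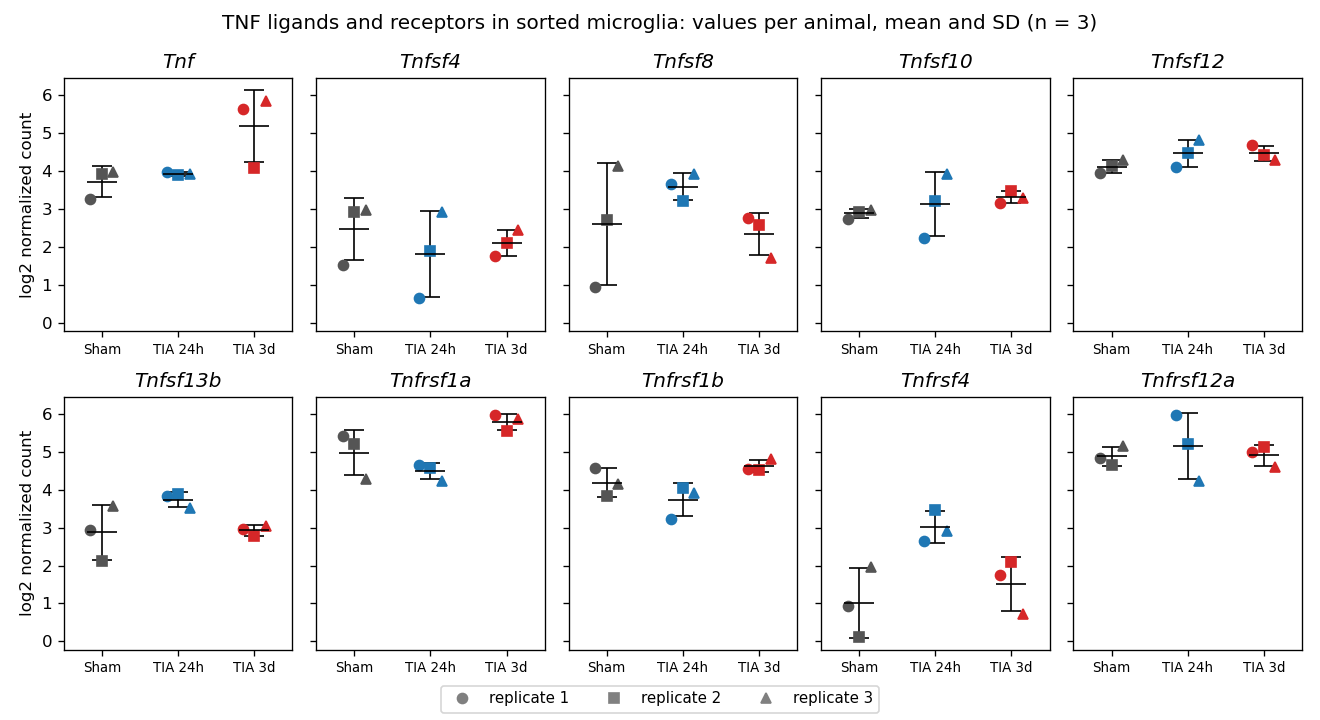
Deposited log2 normalized counts of the 10 members (6 ligands, then 4 receptors) in each animal; bars give the mean and SD of 3 animals and marker shapes the replicate number. Tnfrsf1a at TIA 3d lies at 5.55 to 5.96, above all 6 other values, and Tnf at TIA 3d spreads from 4.09 to 5.85.

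Tnfrsf4, the receptor OX40, showed the lowest Sham mean and the largest difference at TIA 24h among the members, on at most 6 counts. Its log2 values were 0.94, 0.13 and 1.97 in Sham, then 2.66, 3.47 and 2.92 at TIA 24h, then 1.75, 2.09 and 0.72 at TIA 3d. TIA 24h did not overlap either group. TIA 24h exceeded Sham by 2.00 (SE 0.53, limma adjusted p = 0.617), or by 0.57 with a pseudocount of 10 (0.647), and TIA 3d minus TIA 24h was -1.49 (limma adjusted p = 0.0604). The latter passed without Sham replicate 1 or Sham replicate 3, with a lowest limma adjusted p of 0.0289, and with voom (-2.50, adjusted p = 0.00673), a fit in which 48.3% of all genes passed as lower at TIA 3d and the median of all genes was -1.30. The raw counts at TIA 3d and TIA 24h differed by only -0.03 on the log2 scale, while the authors' lane factors differed between these groups by -1.46 on average. A gene with equal raw counts in both groups therefore appears 1.46 lower at TIA 3d on the deposited scale. Its ligand Tnfsf4 had log2 values of 1.52, 2.93 and 2.97 in Sham, then 0.66, 1.89 and 2.92 at TIA 24h, then 1.75, 2.09 and 2.45 at TIA 3d, overlapping in every comparison. Within lanes, Tnfsf4 minus Tnfrsf4 on the log2 scale changed by -2.66 from Sham to TIA 24h (exact permutation p = 0.1, adjusted 0.75).

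Tnfsf8 and Tnfsf13b were also lower at TIA 3d on the deposited scale, and neither passed the test on that scale. The log2 values of Tnfsf8, the CD30 ligand, were 0.94, 2.71 and 4.14 in Sham, then 3.66, 3.21 and 3.92 at TIA 24h, then 2.75, 2.58 and 1.72 at TIA 3d. Those of Tnfsf13b were 2.94, 2.13 and 3.56, then 3.83, 3.89 and 3.51, then 2.97, 2.77 and 3.04. For both, every TIA 3d animal lay below every TIA 24h animal, by log2 differences of -1.25 and -0.81 (limma adjusted p = 0.173 and 0.176). The corresponding differences in raw log2 counts were positive, 0.22 and 0.65, with overlap, but raw counts are not scaled for the deeper TIA 3d lanes. With quantile normalization both differences stayed negative, -0.73 for Tnfsf8 and -0.31 for Tnfsf13b. With the total count as covariate they were 1.77 and -0.36 in that order. With voom, which scales by the lane total, both passed as lower at TIA 3d, Tnfsf8 by a log2 difference of -2.26 (adjusted p = 0.0167) and Tnfsf13b by -1.80 (adjusted p = 0.0084), beside 48.3% of all genes and a median of -1.30.

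Tnfsf10, Tnfsf12 and Tnfrsf12a had mean log2 differences of at most 0.43 in size between any groups, and none passed on the deposited scale. Tnfsf10 had log2 values of 2.75, 2.93 and 2.97 in Sham, then 2.24, 3.21 and 3.92 at TIA 24h, then 3.17, 3.47 and 3.30 at TIA 3d. Tnfsf12, which encodes TWEAK, had 16, 16 and 10 counts, then 11, 12 and 15, then 46, 25 and 36, or log2 values of 3.94, 4.13 and 4.30, then 4.12, 4.47 and 4.83, then 4.69, 4.42 and 4.30. Both lay higher at TIA 3d than in Sham without overlap, Tnfsf12 with its nearest values both at 4.30, with mean differences of 0.43 and 0.35 (limma adjusted p = 0.583 and 0.608). Tnfrsf12a, the TWEAK receptor Fn14, had 30, 23 and 18 counts, then 40, 20 and 10, then 57, 41 and 44. Its log2 values spanned 4.65 to 5.14 in Sham, then 4.24 to 5.98 at TIA 24h, then 4.59 to 5.13 at TIA 3d, and overlapped throughout. The 95% interval for Tnfrsf12a at TIA 3d against Sham ran from -0.98 to 1.03, so changes within that range could not be told from none with these animals. With voom, Tnfrsf12a was lower at TIA 3d against TIA 24h (-1.18, adjusted p = 0.0381), less so than the median of all genes in that fit, -1.30.

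Counted over the members, 0 of 10 passed the moderated F test over the 3 groups in limma at an adjusted p under 0.05, beside 0% of all genes. At an unadjusted p under 0.05 there were 3 (Tnf, Tnfrsf1a and Tnfrsf4), beside 31% of all genes. For TIA 24h against Sham, 0 members passed, beside 0% of all genes, and 1 (Tnfrsf4) had an unadjusted p under 0.05, beside 7.53%. In that comparison 1 member lay higher without overlap (Tnfrsf4), beside 8.06%, and 0 lay lower, beside 1.72%. The voom fit of the recovered counts called 0 members as well in both comparisons with Sham, and over the 3 groups 2 members (Tnfrsf4 and Tnfsf13b), beside 38.8% of all genes.

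For TIA 3d against Sham, which shares the Sham animals with the comparison before, 0 members passed, beside 0% of all genes, and 1 (Tnf) had an unadjusted p under 0.05, beside 19.6%. Here 4 members lay higher without overlap (Tnf, Tnfrsf1a, Tnfsf10 and Tnfsf12), beside 15.1% of all genes, and 0 lay lower, beside 9.11%. The median log2 difference of the members was 0.39, beside -0.01 over all genes. At TIA 24h against Sham these medians were 0.25 and 0.15.

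For TIA 3d against TIA 24h, 1 member passed (Tnfrsf1a), beside 19.2% of all genes in either direction and 11.6% higher at TIA 3d, so the share of members called was no larger than that of the table. An unadjusted p under 0.05 was found for 4 members (Tnf, Tnfrsf1a, Tnfrsf1b and Tnfrsf4), beside 40.2%. Without overlap, 3 lay higher (Tnf, Tnfrsf1a and Tnfrsf1b), beside 22.1%, and 3 lower (Tnfrsf4, Tnfsf8 and Tnfsf13b), beside 26.3%. The median log2 difference of the members was 0.09, beside -0.25 over all genes. Without the 3 lanes low in microglial markers, 0 members passed in any comparison in limma, with Tnf 1.21 higher at TIA 3d than TIA 24h (adjusted p = 0.296) and Tnfrsf4 2.12 higher at TIA 24h than in Sham (adjusted p = 0.602).

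**Figure D3:**
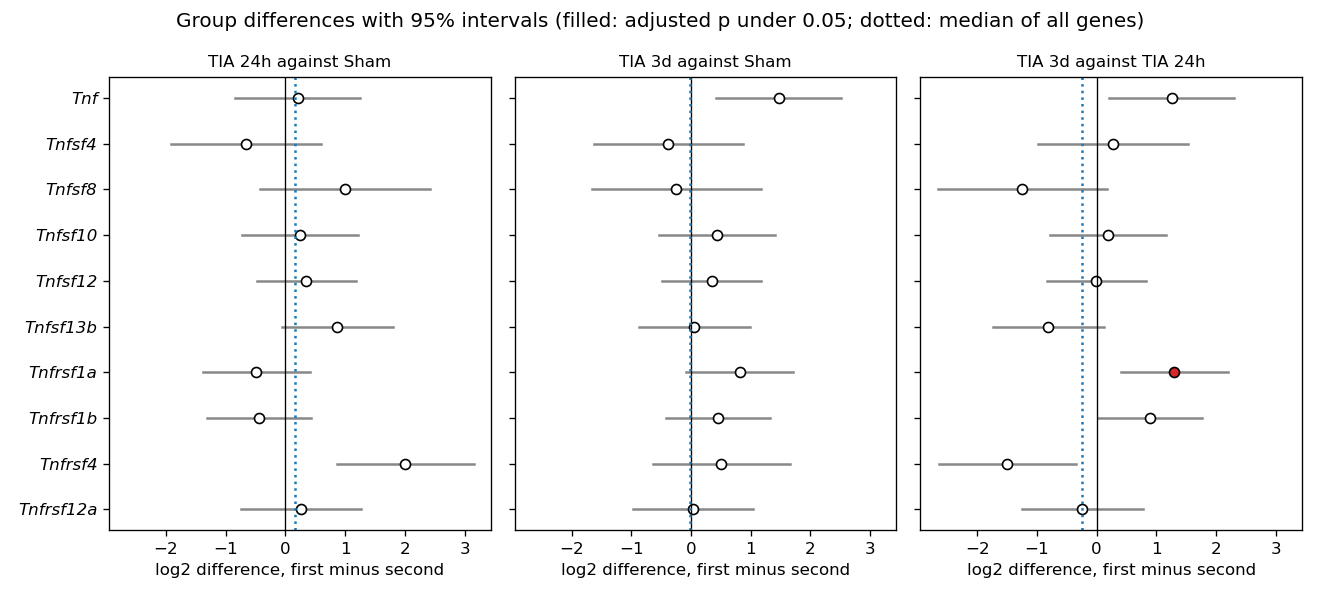
Differences of the group means on the deposited log2 scale (points) with 95% limma intervals (lines) for the 10 members in 3 comparisons; filled points had an adjusted p under 0.05 and dotted lines mark the median of all genes. Tnfrsf1a at TIA 3d against TIA 24h, at 1.30, is the filled point.

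Between the time points, Tnf and its receptors were higher at TIA 3d under every setting run except voom for Tnfrsf1b. Most of these settings keep the deposited lane scaling and the same lanes, so a shared sign says little. With the total count as covariate the difference of Tnfrsf1a was 0.02. With each lane scaled by its total count (voom), the differences were 0.11 for Tnf, 0.31 for Tnfrsf1a and -0.07 for Tnfrsf1b, where the median of all genes was -1.30. Microglial markers themselves rose at TIA 3d against TIA 24h, 11 of 12 past the limma threshold, with a median of 2.99. Set against the mean log2 of these markers in the same lane, a measure chosen after seeing the data, the difference between TIA 3d and TIA 24h was -1.56 for Tnf, -1.52 for Tnfrsf1a and -1.93 for Tnfrsf1b (two-sided exact permutation p = 0.1 each, adjusted 0.3 over 30 tests). All 10 members lay lower without overlap on that measure, as did 87.7% of all genes, so this count is not particular to the members.

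**Figure D4:**
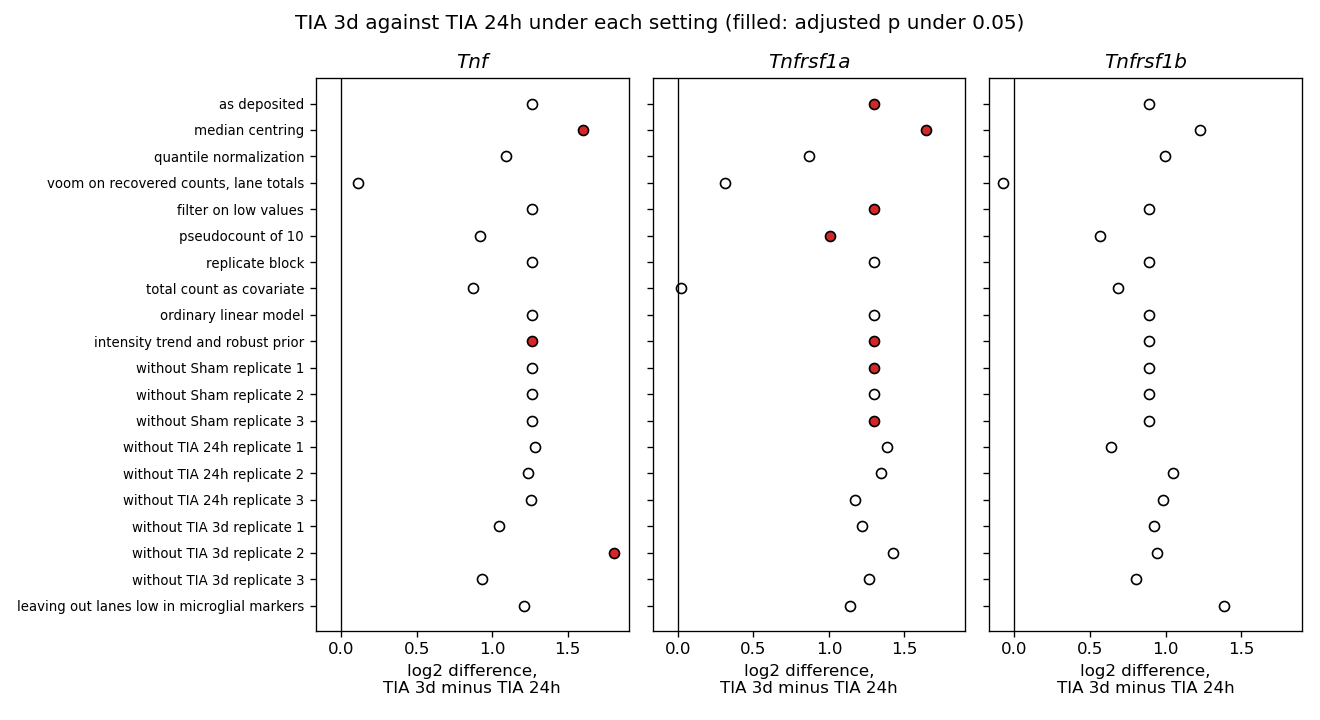
Log2 difference between TIA 3d and TIA 24h for Tnf, Tnfrsf1a and Tnfrsf1b under each setting (rows); filled points had an adjusted p under 0.05. Tnfrsf1a ranges from 0.02 with the total count as covariate to 1.64 with median centring.

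The pathway around the members was read from lists of further TNF family and signalling genes. No gene of these lists passed in either comparison with Sham in limma. The calls below, for TIA 3d against TIA 24h, are among the 145 of all genes (19.2%, with 11.6% higher at TIA 3d). In that comparison 0 of all genes passed without the 3 lanes low in microglial markers, without any 1 of 4 animals (replicates 2 and 3 of TIA 24h, replicates 1 and 3 of TIA 3d), with the total count as covariate, or in an ordinary linear model. Of 12 other ligands, 4 were measured and 0 passed for TIA 3d against TIA 24h, the smallest p values being those of Fasl, the Fas ligand (-1.55, limma adjusted p = 0.0819), and Cd70 (-1.36, limma adjusted p = 0.174). Of 20 other receptors, 9 were measured and 1 rose, Ltbr, the lymphotoxin beta receptor (1.79, limma adjusted p = 0.0493). Its raw counts went from 6, 3 and 1 to 25, 14 and 45. Raw counts given for this and the following lists are not scaled for depth, and all TIA 3d lanes were deeper. Of 30 receptor adaptors and proximal kinases, 15 were measured and 0 passed, with Mapk14, the kinase p38 alpha (1.31, limma adjusted p = 0.0551), and Cflar, an inhibitor of caspase 8 (1.41, limma adjusted p = 0.0588), nearest. None of 11 genes for TNF shedding and message control was measured.

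Of 18 NF-kB kinases, subunits and inhibitors, 10 were measured, 3 rose and 0 fell from TIA 24h to TIA 3d. These were Rela, which encodes the p65 subunit (2.19, limma adjusted p = 0.0304), Nfkb2 (1.62, 0.0455) and Nfkbia, the inhibitor that NF-kB itself induces (1.89, 0.0474). Their patterns against Sham differed, with none past the threshold. TIA 3d minus Sham was 0.23 for Rela, 2.21 for Nfkb2 and 3.44 for Nfkbia. TIA 24h minus Sham was -1.95, 0.58 and 1.55 in that order. The raw counts of Nfkbia, not scaled for depth, went from 8, 7 and 4 to 75, 34 and 94.

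Of 31 TNF-responsive genes, 17 were measured, 6 rose and 2 fell. Il1a, the cytokine interleukin-1 alpha, rose by 4.45 (limma adjusted p = 0.0229), with raw counts of 9, 1 and 1, then 134, 80 and 184. The stress-induced transcription factor Atf3 rose by 3.09 and Bcl2a1a, a survival gene of the Bcl2 family, by 2.31 (limma adjusted p = 0.0229 and 0.0308). The chemokine Ccl5 (-1.96, 0.0229) and Il1b (-1.77, 0.0494), which encodes interleukin-1 beta, were the members of the list that fell. Between the same groups the counts of Ccl5 went from 7, 6 and 8 to 4, 3 and 10 and those of Il1b from 19, 8 and 17 to 24, 3 and 19. Both thus overlapped in raw counts, which are not scaled for the deeper TIA 3d lanes. Many other stimuli act on these genes too. The list medians were 0.65 for NF-kB genes, 0.53 for TNF-responsive genes, 0.14 for adaptors, -0.88 for other receptors and -1.05 for other ligands, beside -0.25 over all genes.

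**Figure D5:**
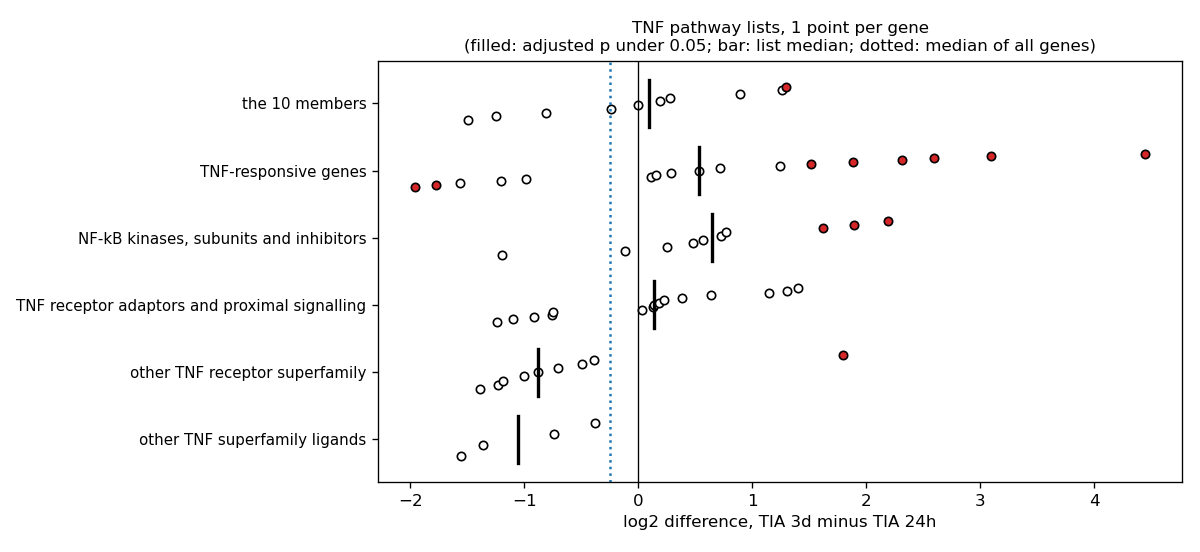
Log2 difference between TIA 3d and TIA 24h for each measured gene of 5 pathway lists and for the 10 members (1 point per gene; filled, adjusted p under 0.05); bars give the list median and the dotted line the median of all genes. The filled points are 6 higher and 2 lower TNF-responsive genes, 3 NF-kB genes, Ltbr and Tnfrsf1a.

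Over the 9 samples, the genes whose deposited log2 values followed Tnf most closely were Sqstm1 (Pearson r = 0.897), Dst (0.896) and Rb1cc1 (0.895). Those closest to Tnfrsf1a were C1qc (0.981), Rps21 (0.976) and Itgb5 (0.976). These are descriptions over 9 samples that share lane depth and lane factors, and no test was made.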

How the data were processed

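The 9 RNA samples of sorted cells, labelled microglia, were grouped by their titles into Sham, TIA 24h and TIA 3d, 3 animals each. The deposited values are log2 normalized counts. Per the study's methods, the authors scaled each lane by housekeeping genes and left out genes that did not exceed the top negative control. The deposited values still held low counts, with 18 genes at 1 count in Sham replicate 3. Whether that filter had been applied to them was not tested. No background level was set from control probes, so "near the lowest counts" is a description, with lymphocyte markers beside it. The build behind the probe panel is not given in the sources used here, and the promoter windows are from GRCm38.p6.

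Whole counts were recovered from the step of the low values in each lane. Within 0.01 counts, 100% of values came out whole. Totals ranged over 9.59-fold and lane factors over 3.58-fold.

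All 757 genes were fitted in limma 3.58.1 (R 4.3.3) on the log2 values with 1 mean for each group and without covariates. Tests were two-sided, adjusted by Benjamini-Hochberg over 757 genes within each contrast, with a threshold of 0.05. The code was tested on simulated data. Within-lane differences used exact permutation tests. P-values rest on 3 animals a group.

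Alternatives were median centring, quantile normalization, voom, a filter at the 0.25 quantile, a pseudocount of 10, the replicate number as a block, the total count as covariate, an ordinary linear model, an intensity trend with robust prior, and leaving out each sample.

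The members and lists were chosen with earlier results of these data known. All 10 members were named. Of each list at most 3 higher and 3 lower genes with the smallest adjusted p were named, or the 2 nearest where none passed. For Tnf and the member with the highest median count, the 3 genes with the highest Pearson r were named. Symbols of 10 of 10 members were matched in RefSeq, which supplied the promoter sequences.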

Additional observations from a re-analysis of the deposited data

Results flagged for a closer look

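Tnfrsf1a passed the threshold between the time points on the deposited scale, as did 19.2% of all genes. Neither of its changes against Sham passed (-0.49 at TIA 24h and 0.82 at TIA 3d, limma adjusted p = 0.783 and 0.28). TIA 3d exceeded TIA 24h by 1.30 on the log2 scale (limma adjusted p = 0.0474), the difference being tested directly as a contrast between the TIA groups. The call was lost without any 1 of the TIA animals or Sham replicate 2 (limma adjusted p of 0.0572 to 0.149), with the replicate block (0.0517), with an ordinary linear model (0.0912) and with quantile normalization (0.87, adjusted p = 0.232). The difference was 0.31 with voom and 0.02 with the total count as covariate. Without the 3 lanes low in microglial markers, which leaves 1 lane at TIA 24h, it was 1.14. Set against the mean log2 of the microglial markers in the same lane it was -1.52, where 87.7% of all genes lay lower without overlap. These last 2 measures were chosen after seeing the data.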

How the results depend on the processing

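For TIA 3d against TIA 24h, the number of members past the threshold was 1 on the deposited values, 2 with median centring (Tnf and Tnfrsf1a) and 2 with an intensity trend and robust prior (Tnf and Tnfrsf1a). It was 4 with voom (Tnfrsf4, Tnfsf8, Tnfrsf12a and Tnfsf13b, all lower at TIA 3d, beside 48.3% of all genes). It was 0 with quantile normalization, the replicate block, the total count as covariate, the ordinary linear model and leaving out the lanes low in microglial markers, the last chosen after seeing the data. Leaving out 1 sample at a time gave 0 to 2, with 2 (Tnfrsf1a and Tnfrsf4) without Sham replicate 1 or Sham replicate 3 and Tnf in place of Tnfrsf1a without TIA 3d replicate 2. Over the 3 groups, voom called 2 (Tnfrsf4 and Tnfsf13b, beside 38.8% of all genes) and leaving out 1 sample 0 to 1 (Tnfrsf4, without Sham replicate 3). The number near the lowest counts was 0 at 5 counts and 5 at 20.

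With the replicate block, Tnfrsf1a had a limma adjusted p of 0.0517, the 1 call among the members that the block changed. The numbers were not taken to pair the samples, which would have needed a correlation of deviations over 0.1 in all 9 same-numbered pairs. It was over 0.1 in 5 of 9 (range -0.237 to 0.271). The Tnfrsf1a difference was 0.87 with quantile normalization (adjusted p = 0.232), 0.31 with voom (0.553), 0.02 with the covariate (0.997) and 1.17 to 1.42 without single samples. Calls over all genes in this contrast were 88 higher and 57 lower, 89 and 51 with the replicate block, 123 and 21 with median centring, 19 and 366 with voom, 3 and 4 with quantile normalization, and 0 with the ordinary linear model, the covariate, or without the low lanes. Leaving out 1 sample gave 0 to 226 calls, with 0 without any 1 of 4 animals (replicates 2 and 3 of TIA 24h, replicates 1 and 3 of TIA 3d).

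No member that changed direction was past the threshold in that comparison on the deposited values, though Tnfrsf4, Tnfsf8 and Tnfrsf12a were in TIA 3d against TIA 24h with voom, and Tnfrsf4 also without Sham replicate 1 or Sham replicate 3. For TIA 3d against Sham, voom turned Tnfrsf1a (-0.011), Tnfrsf1b (-0.27), Tnfrsf4 (-0.56), Tnfsf10 (-0.34), Tnfsf12 (-0.25), Tnfrsf12a (-0.58) and Tnfsf13b (-0.63), the covariate Tnfrsf1a (-0.11), Tnfsf4 (0.81) and Tnfsf8 (1.93), quantile normalization Tnfsf8 (0.022) and Tnfrsf12a (-0.57), the pseudocount Tnfsf13b (-0.0046), and leaving out the low lanes Tnfsf8 (0.52). For TIA 3d against TIA 24h, voom turned Tnfrsf1b (-0.073), Tnfsf4 (-0.92) and Tnfsf10 (-0.86), the covariate Tnfrsf4 (0.26), Tnfsf8 (1.77) and Tnfsf12 (0.48), median centring Tnfsf12 (0.34) and Tnfrsf12a (0.10), and leaving out the low lanes Tnfsf12 (0.35). For TIA 24h against Sham, quantile normalization turned Tnf (-0.058) and leaving out the low lanes Tnfsf10 (-0.60). Without single samples the sign turned at least once for Tnf (-0.026 to 0.33), Tnfrsf12a (-0.15 to 0.71) and Tnfsf10 (-0.16 to 0.68) at TIA 24h against Sham, Tnfrsf12a (-0.087 to 0.18), Tnfsf13b (-0.32 to 0.40) and Tnfsf8 (-1.08 to 0.52) at TIA 3d against Sham, and Tnfsf4 (-0.30 to 0.83), Tnfsf10 (-0.25 to 0.59), Tnfrsf12a (-0.69 to 0.18) and Tnfsf12 (-0.18 to 0.18) at TIA 3d against TIA 24h. The cause of these changes was not tested.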
